A study of Homo sapiens with 8 samples.

Results

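The BCL2 family genes were measured in the human line RD, which comes from a rhabdomyosarcoma, a childhood tumour with features of skeletal muscle. They were followed in 4 shPROX1 libraries, whose cells carried a short hairpin RNA against the homeobox transcription factor PROX1, and in 4 control libraries, whose cells carried a scrambled hairpin. All libraries held total RNA of the same line grown in DMEM with fetal bovine serum. The series design describes each group as biological replicates and states silencing of 75%; whether the cells were a pool or 1 clone, and how long the hairpin was present, is not given in the sources used here. The members were 10 listed genes out of 58302 in the deposited tables, matched by Ensembl identifier to their symbols: the pro-survival genes BCL2, BCL2L1, BCL2L2 and MCL1, the pore-forming effector BAK1, and the BH3-only genes BCL2L11, BID, BAD, BMF and PMAIP1.

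The BCL2 family decides whether the outer mitochondrial membrane is opened in apoptosis. Effectors such as BAK1 form pores that release cytochrome c, pro-survival proteins hold the effectors in check, and BH3-only proteins, named for the 1 short helix they share with the rest of the family, bind the pro-survival proteins or activate the effectors. Release of cytochrome c then lets APAF1 activate caspase 9, which in turn cleaves the executioner caspases. Much of the control of this family lies in protein binding, phosphorylation and degradation, which transcript counts do not measure.

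Libraries held 3747090 to 4865161 counts assigned to genes. Levels are given in CPM, a gene's count scaled to a common library total, as mean ± SD of the 4 libraries of a group. A log2 change is shPROX1 minus control on the log2 scale, estimated with its standard error by the edgeR quasi-likelihood fit over 12392 tested genes. The fit also scales each library by a TMM factor (0.989 to 0.998 in shPROX1, 1.002 to 1.018 in control), which CPM do not use. Log2 changes, folds and percentages therefore differ slightly from ratios of mean CPM, and small ones can differ in sign. A gene is said to have risen or fallen where its p adjusted over all tested genes (Benjamini-Hochberg) was under 0.05. In bulk RNA, fewer cells with a transcript and less of it per cell cannot be told apart, and the counts are per gene, so the long and short forms of MCL1, BCL2L1 and BCL2L11 are summed. PROX1 averaged 8.79 ± 1.15 CPM in shPROX1 and 18.6 ± 2.58 CPM in control (log2 change -1.07 ± 0.15, edgeR adjusted p = 4.89e-06), with no overlap between the groups. By the fit, this left 47.6% of the control level (95% interval 38.6% to 58.9%). As a change this is -52.4% (95% interval -61.4% to -41.1%), which does not reach the stated silencing of 75%. Why these values differ was not tested. The muscle genes MYOD1 (72.2 ± 4.49 CPM in shPROX1 and 71.2 ± 7.72 CPM in control) and DES (473 ± 21.0 CPM in shPROX1 and 545 ± 16.4 CPM in control) were well expressed, the leukocyte markers PTPRC, CD3E and LYZ summed to at most 1.03 CPM in any library, and the endothelial markers PECAM1, CDH5, VWF and KDR to at most 1.65 CPM. Of the epithelial markers, EPCAM, CDH1 and KRT19 were below the filter on low counts and KRT18 rose (254.5 ± 11.3 CPM in shPROX1 and 186.7 ± 14.5 CPM in control), so that this list of 5 summed to 256 to 281 CPM in shPROX1 and 176 to 207 CPM in control. Of the 6 muscle markers 4 fell, namely MYOG, a regulator of muscle differentiation (log2 change -1.32 ± 0.06), MYMK, a myoblast fusion factor (-1.31 ± 0.31), MYH3, the embryonic myosin heavy chain (-0.94 ± 0.06), and DES (-0.18 ± 0.04). MYOD1 and CHRNA1 (0.01 ± 0.04) did not pass. The 6 summed to 1122 to 1211 CPM in shPROX1 and 1361 to 1410 CPM in control. The part of these shifts in the values of the BCL2 family was not tested. Control libraries differed more from each other than shPROX1 libraries did: chi-square over degrees of freedom was 1.19 to 2.16 for pairs within shPROX1 and 2.39 to 6.34 for pairs within control, where the highest values (4.74 and 6.34) both came from pairs with control replicate 1.

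Of the 10 members, 3 rose after PROX1 silencing and 0 fell. PMAIP1, a BH3-only gene, rose 1.64-fold, and the pro-survival genes BCL2L1 and MCL1 rose 1.26-fold and 1.13-fold. The other 7 members did not pass the test. Among all tested genes, 35.2% passed the test, 17.3% as rises and 17.9% as falls, so that 3 rises among 10 genes lay near the background. The median log2 change was 0.01 over the members and -0.01 over all tested genes, with 5 members of positive and 5 of negative sign. All 10 members passed the filter on low counts. Counting groups instead by overlap, the shPROX1 libraries lay wholly above the control libraries in the same 3 members, against 14.4% of tested genes that lay wholly above, 17.9% wholly below and 32.3% either way.

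**Figure D1:**
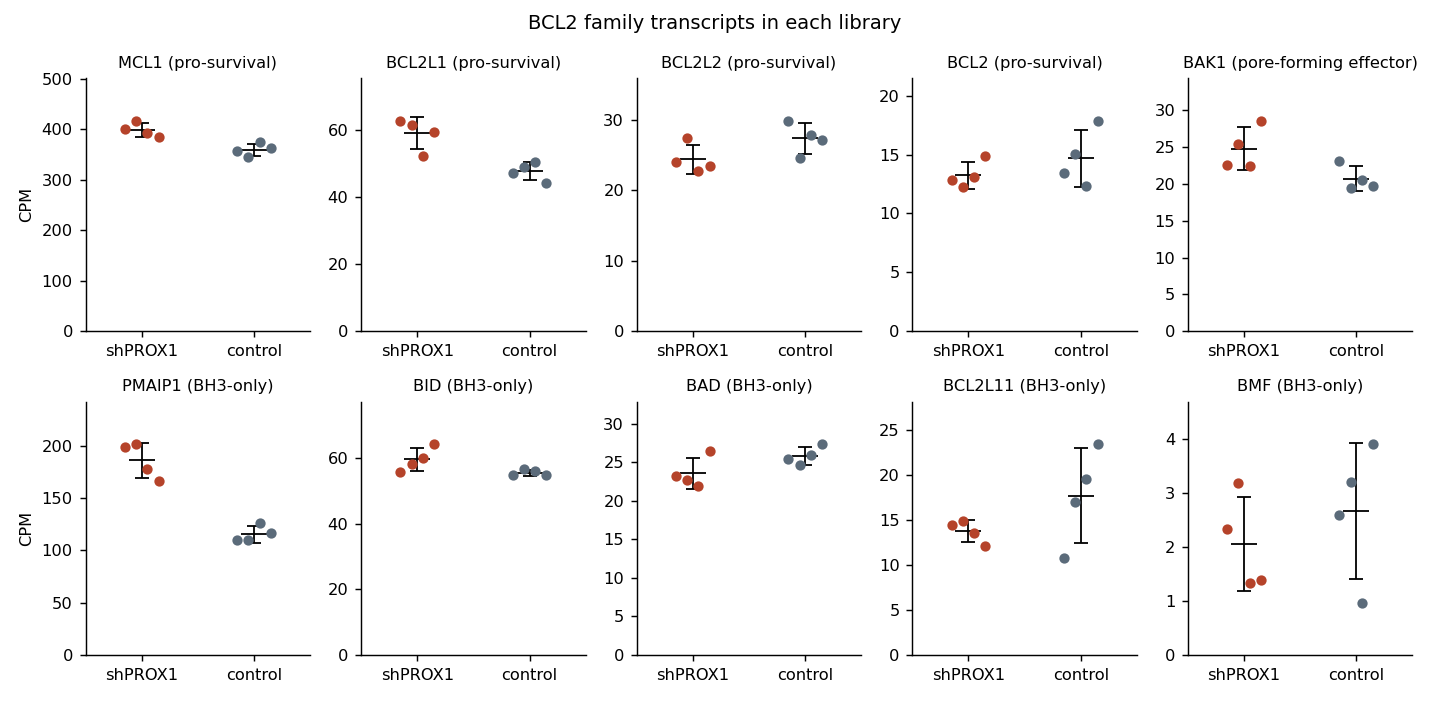
CPM (y axis, from 0) of the 10 members in each library, with shPROX1 libraries on the left and control libraries on the right of each panel; bars give mean and SD of 4 libraries. The groups are apart for PMAIP1, BCL2L1 and MCL1 and overlap for the other 7 members.

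PMAIP1 encodes NOXA, a small BH3-only protein that binds MCL1 and promotes its degradation. PMAIP1 (ENSG00000141682, plus strand of chromosome 18, 59899948 to 59904306, GRCh38) had 199, 201, 178 and 166 CPM in the shPROX1 libraries, against 109, 109, 127 and 116 CPM in the control libraries. Every shPROX1 library was above every control library, and the lowest of them lay well clear of the highest control library. The means were 186 ± 16.9 CPM in shPROX1 and 115 ± 8.03 CPM in control (log2 change 0.71 ± 0.06, edgeR adjusted p = 9.05e-09). The 95% interval of the fold was 1.49 to 1.80. A log2 change at least as high was found in 3.21% of tested genes, a share that counts rises only and leaves out falls of the same size. The rise rests on 3059 counts in shPROX1 and 1998 counts in control.

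BCL2L1 encodes BCL-XL, a pro-survival protein of the mitochondrial membrane that binds BAK1 and BH3-only proteins. BCL2L1 (ENSG00000171552, minus strand of chromosome 20, 31664452 to 31723989) had 62.8, 61.7, 52.3 and 59.5 CPM in the shPROX1 libraries, against 47.3, 49.1, 50.6 and 44.2 CPM in the control libraries. The groups did not overlap, although shPROX1 replicate 3 came close to control replicate 3. BCL2L1 averaged 59.1 ± 4.72 CPM in shPROX1 and 47.8 ± 2.73 CPM in control (log2 change 0.34 ± 0.08, edgeR adjusted p = 0.00141). The antisense gene ABALON shares 43.0% of the exon bases of BCL2L1 on the opposite strand. ABALON held 11 counts over the shPROX1 libraries and 6 counts over the control libraries, and BCL2L1 held 974 counts in shPROX1 and 824 counts in control. If strand was not used in counting, reads in the shared bases may have been left uncounted for both genes. The counts of both, and the BCL2L1 level per length of exon, would then be too low.

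MCL1 encodes a short-lived pro-survival protein and had the highest mean level of the members per length of exon. MCL1 (ENSG00000143384, minus strand of chromosome 1, 150574551 to 150579738) had 401, 417, 393 and 385 CPM in the shPROX1 libraries, against 357, 345, 374 and 362 CPM in the control libraries. The ranges were apart by a small margin, between shPROX1 replicate 4 and control replicate 3. MCL1 averaged 399 ± 13.7 CPM in shPROX1 and 359.5 ± 12.2 CPM in control (log2 change 0.17 ± 0.05, edgeR adjusted p = 0.00498). By the fit, this is a rise of 12.8% with a 95% interval of 5.61% to 20.5%. Of all tested genes, 24.1% had a log2 change at least as high, a share that leaves out falls of the same size. The median absolute log2 change over all tested genes was 0.184, against 0.174 for MCL1, so this was not a large change among them.

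Promoter sequence is shown for the risen members that have an entry in RefSeq's promoter table (GRCh38.p14), PMAIP1 and BCL2L1, so that the DNA before the start of each can be compared; MCL1 and BCL2L2 are named only, and 8 of 10 members matched. Each run gives the 250 bases before the RefSeq start, 5′ to 3′ on the gene's own strand. Capitals mark GC boxes (GGGCGG) and the core of the cAMP response element (TGACGT), on either strand. The PMAIP1 window is chr18:59899746-59899995 on the plus strand and the BCL2L1 window is chr20:31723964-31724213 on the minus strand.
PMAIP1: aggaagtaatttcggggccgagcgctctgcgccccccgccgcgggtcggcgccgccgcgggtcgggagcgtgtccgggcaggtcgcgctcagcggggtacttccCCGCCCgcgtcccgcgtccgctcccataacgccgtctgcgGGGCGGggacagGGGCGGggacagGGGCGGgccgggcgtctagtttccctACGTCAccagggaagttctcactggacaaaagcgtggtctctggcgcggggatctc
BCL2L1: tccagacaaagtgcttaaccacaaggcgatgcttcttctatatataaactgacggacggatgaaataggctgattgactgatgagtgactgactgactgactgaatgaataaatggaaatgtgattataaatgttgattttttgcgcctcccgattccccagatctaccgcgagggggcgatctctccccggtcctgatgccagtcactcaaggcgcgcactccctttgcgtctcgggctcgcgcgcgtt

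The PMAIP1 window was rich in G and C (72.8%, against a median of 58% over all promoters of the table) and held 4 GC boxes and 1 TGACGT, which lay 56 bases before the start. The BCL2L1 window was 50% G and C and held neither motif. GC boxes were in 6 of the 8 member windows, among them those of members that did not pass the test (4 in BID, 3 in BCL2L11, 2 in BAK1, 1 each in BAD and BMF), and TGACGT was also in that of BAD, 54 bases before the start. GC boxes are bound by factors of the SP family and were found in 42.6% of 35116 promoter windows of the same length. TGACGT, which was added to the search after the PMAIP1 sequence had been seen and lies within the full element TGACGTCA, was found in 7.10%. The full element (1.65% of all windows), the AP-1 site TGANTCA (6.57%), the E-box CACGTG (6.34%) and the STAT site TTCNNNGAA (6.57%) were in 0 of the 8 member windows. The forkhead site GTAAACA (2.98%) was in that of BCL2L11 alone, 223 bases before the start. Both strands were searched, and RefSeq and GENCODE place the start of PMAIP1 48 bases apart and that of BCL2L1 26 bases apart. In the other windows, GENCODE start minus RefSeq start was -1536 bases for BCL2L11, -359 for BCL2 and -301 for BID. This difference was -17 for BAK1, -13 for BMF and 0 for BAD. For BCL2L11, BCL2 and BID the starts thus differ by more than the 250 bases of the window. Their motif counts and positions hold for the RefSeq start only. A match is a description of letters, not evidence of binding.

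**Figure D2:**
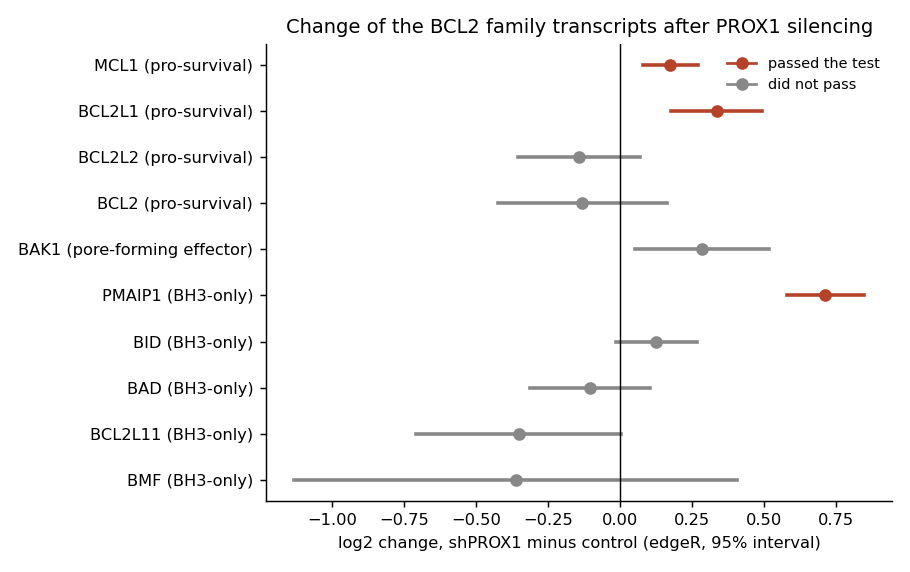
Log2 change (x axis, shPROX1 minus control) of each member with its 95% interval from the edgeR fit, grouped by role. PMAIP1 lies at 0.71, BCL2L1 at 0.34 and MCL1 at 0.17, and the interval of BMF spans -1.13 to 0.41.

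The remaining pro-survival members, BCL2 and BCL2L2, did not pass the test. BCL2, the founding member of the family, had 12.8, 12.2, 13.1 and 14.9 CPM in the shPROX1 libraries, against 13.4, 15.0, 12.3 and 17.9 CPM in the control libraries. The groups overlapped and control replicate 4 was the highest of all (log2 change -0.13 ± 0.14, edgeR adjusted p = 0.512). BCL2L2, which encodes BCL-W, had 24.0, 27.4, 22.7 and 23.5 CPM in the shPROX1 libraries, against 29.9, 24.7, 27.8 and 27.1 CPM in the control libraries. Of the shPROX1 libraries, 3 lay below all control libraries and replicate 2 lay among them (log2 change -0.14 ± 0.10, edgeR adjusted p = 0.297). The 95% interval of the BCL2L2 change was -0.35 to 0.07 and that of BCL2 was -0.42 to 0.16, so that a fall of up to 21.8% in BCL2L2 and of up to 25.4% in BCL2 lay within the intervals at this depth. The readthrough gene BCL2L2-PABPN1 shares 19.4% of the exon bases of BCL2L2 on the same strand, and reads there may have been left uncounted as ambiguous; the readthrough gene itself held 5 counts in shPROX1 and 2 counts in control.

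BAK1, the effector among the members, was close to the threshold. It had 22.6, 25.4, 22.4 and 28.6 CPM in the shPROX1 libraries, against 23.1, 19.5, 20.6 and 19.7 CPM in the control libraries. Control replicate 1 was the only control library that reached into the shPROX1 range. BAK1 averaged 24.8 ± 2.91 CPM in shPROX1 and 20.7 ± 1.65 CPM in control (log2 change 0.28 ± 0.11, edgeR adjusted p = 0.0527), with 408 counts in shPROX1 and 358 counts in control. It passed the test without control replicate 1 (log2 change 0.34, edgeR adjusted p = 0.0253), after leaving out shPROX1 replicate 3 (0.33, adjusted p = 0.0354) and after leaving out shPROX1 replicate 1 (0.33, adjusted p = 0.0466). It reached an adjusted p of 0.200 at most over all alternatives. BAX, the partner effector to BAK1, is no member; it averaged 26.7 ± 3.42 CPM in shPROX1 and 30.2 ± 2.73 CPM in control and did not pass (log2 change -0.15 ± 0.11, edgeR adjusted p = 0.292). The third family effector, BOK, had 42.8 ± 4.25 CPM in shPROX1 and 42.1 ± 4.02 CPM in control (edgeR adjusted p = 0.719). Summed per kb of exon, BAK1 and BAX came to 21.5 ± 2.55 CPM per kb in shPROX1 and 21.0 ± 1.60 CPM per kb in control.

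Among the BH3-only members other than PMAIP1, values went in both directions and none passed the test. BCL2L11 encodes BIM, a strong activator of BAX and BAK1 and a target of FOXO factors. It had 14.4, 14.9, 13.6 and 12.1 CPM in the shPROX1 libraries, against 10.8, 17.0, 19.6 and 23.4 CPM in the control libraries. Of the control libraries, 3 lay above all shPROX1 libraries and control replicate 1 lay below all of them. BCL2L11 averaged 13.8 ± 1.24 CPM in shPROX1 and 17.7 ± 5.29 CPM in control (log2 change -0.35 ± 0.17, edgeR adjusted p = 0.117). Without control replicate 1 it fell (log2 change -0.53, edgeR adjusted p = 0.00393), whereas without control replicate 4 its log2 change was -0.18 (adjusted p = 0.470). The spread of BCL2L11 over control libraries was 29.9% of its mean, against 11.4% from counting error alone, while over shPROX1 libraries it was 9.03%, against 13.3% from counting error. The long non-coding gene MIR4435-2HG shares 10.9% of the exon bases of BCL2L11 on the opposite strand. It held 830 counts in shPROX1 and 695 counts in control, which is more than BCL2L11 itself, with 226 counts in shPROX1 and 310 counts in control. Whether its reads entered the BCL2L11 count, or reads in the shared bases were left uncounted, was not tested.

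BID encodes the protein that caspase 8 cleaves to carry a death receptor signal to mitochondria. It had 55.6, 58.2, 60.0 and 64.2 CPM in the shPROX1 libraries, against 54.6, 56.5, 56.1 and 54.7 CPM in the control libraries. The upper 3 shPROX1 libraries were above all control libraries (log2 change 0.13 ± 0.07, edgeR adjusted p = 0.159). BAD, whose protein is kept from BCL-XL when phosphorylated and bound by 14-3-3 proteins, had 23.3, 22.8, 21.9 and 26.5 CPM in the shPROX1 libraries, against 25.4, 24.7, 25.9 and 27.3 CPM in the control libraries. Here 3 shPROX1 libraries were below all control libraries and replicate 4 was not (log2 change -0.11 ± 0.10, edgeR adjusted p = 0.451). GPR137 shares 23.7% of the exon bases of BAD on the opposite strand and held 171 counts in shPROX1 and 237 counts in control. BMF, whose protein is tethered to the myosin V motor through dynein light chain, was the lowest member, with 10, 13, 5 and 6 counts in the shPROX1 libraries and 11, 13, 4 and 19 counts in the control libraries. These counts allowed no statement beyond a wide interval (log2 change -0.36 ± 0.37, 95% interval -1.13 to 0.41, edgeR adjusted p = 0.487).

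**Figure D3:**
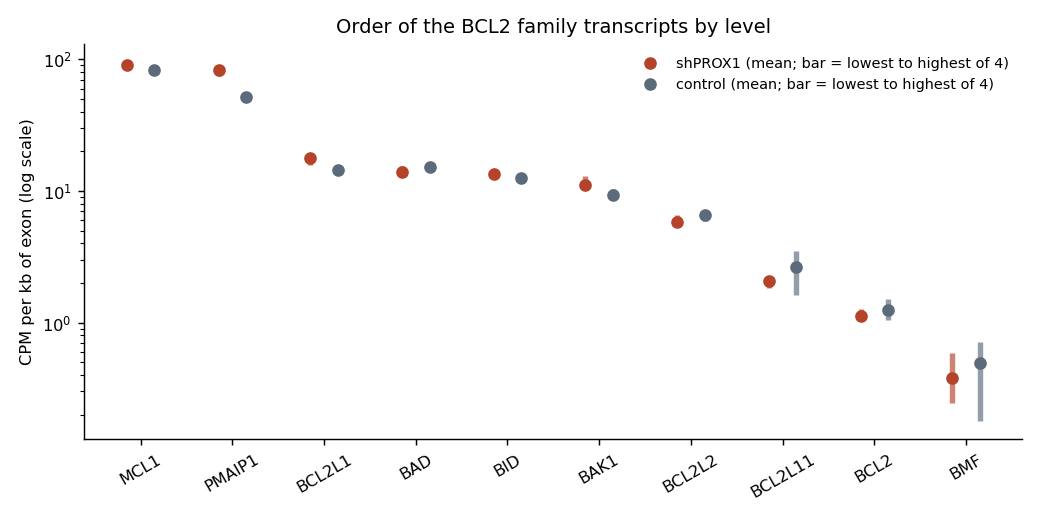
Level of each member in CPM per kb of exon (log axis), as the mean of 4 libraries with a bar from the lowest to the highest library, shPROX1 left of control. MCL1 and PMAIP1 stand above the other 8 members in both groups, and BMF is the lowest.

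To compare levels between genes, CPM were divided by the length of all annotated exons of each gene. In shPROX1 MCL1 led with 91.3 ± 3.13 CPM per kb, followed by PMAIP1 with 83.3 ± 7.56, and the ranges of these genes overlapped. In control MCL1 had 82.3 ± 2.78 CPM per kb and PMAIP1 51.7 ± 3.59, and their ranges were apart. All other members were at most 17.8 CPM per kb in shPROX1 (BCL2L1) and 15.1 CPM per kb in control (BAD). Next in shPROX1 came BCL2L1, BAD, BID and BAK1, of which BAD and BID did not differ beyond their spread, nor did BID and BAK1. In control the order was BAD, BCL2L1, BID and BAK1, where only BAD and BCL2L1 overlapped as neighbours. BCL2L2, BCL2L11, BCL2 and BMF followed in this order in both groups, with 5.82 to 0.378 CPM per kb in shPROX1 and 6.54 to 0.490 CPM per kb in control, and neighbours among these 4 did not overlap in either group with this length. BCL2 itself was thus among the lowest members per kb in RD cells (1.13 ± 0.0970 CPM per kb in shPROX1 and 1.25 ± 0.205 in control); its long annotated exons (11765 bases) lower a level expressed per kb. With the length of the longest coding transcript, 7 of 10 members held the same place in shPROX1, and BID, BCL2L1 and BAD changed places with each other. In control 8 of 10 held their place, with BID and BCL2L1 exchanged. With that length BCL2L11 and BCL2 overlapped in control (2.07 to 4.48 CPM per kb for BCL2L11 and 1.65 to 2.40 for BCL2).

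The makeup of each class, summed over the listed members only (4 pro-survival and 5 BH3-only), followed from these levels and is given as a description. Other BH3-only genes, such as BBC3, BIK and HRK, are not in these sums. The sums and shares use the length of all annotated exons and were not repeated with the longest coding transcript. With that length BID, for example, had 23.9 CPM per kb in shPROX1 in place of 13.4. The shares, and which class sum is the larger, can therefore depend on the length used. MCL1 made up 78.7% ± 0.991 of the summed pro-survival level per kb in shPROX1 and 78.7% ± 0.600 in control. BCL2L1 made up 15.3% ± 0.930 in shPROX1 and 13.8% ± 0.786 in control. PMAIP1 made up 73.6% ± 2.66 of the summed BH3-only level in shPROX1 and 62.7% ± 1.43 in control. The summed BH3-only level was 106 to 119 CPM per kb over the shPROX1 libraries and 78.3 to 87.5 CPM per kb over the control libraries, and the summed pro-survival level 112 to 122 CPM per kb over the shPROX1 libraries and 101 to 109 CPM per kb over the control libraries. PMAIP1 per kb was 0.843 to 0.970 of MCL1 per kb in the shPROX1 libraries and 0.601 to 0.661 in the control libraries, so that this ratio did not overlap between the groups.

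The genes whose pattern over the 8 libraries was nearest to that of the risen members were sought by the root mean square difference of log2 CPM centred on each gene's mean, in a set of 10529 protein-coding genes whose mean was 5 CPM or more. Nearest to PMAIP1 were SGK1 (0.0735), a kinase induced by serum and glucocorticoids, TGFBI (0.0755), a secreted matrix protein induced by TGF-beta, and HS3ST3B1 (0.0764), a heparan sulfate sulfotransferase. SGK1 averaged 127 CPM in shPROX1 and 81.9 CPM in control, and TGFBI 381 CPM in shPROX1 and 239 CPM in control. Nearest to BCL2L1 were MMADHC (0.0415), NPIPA1 (0.0472) and EMC7 (0.0488), and nearest to MCL1 were the glycolytic enzyme PGK1 (0.0288), the ubiquitin ligase RNF167 (0.0304) and the telomere protein TERF2IP (0.0311). Of these, NPIPA1 had a log2 change of 0.36 ± 0.17 and RNF167 of 0.14 ± 0.07. The 8 libraries span both groups, so a gene with a similar log2 change lies near by this measure. Whether these genes share regulation with the members was not tested.

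The other genes of the pathway were followed in 4 lists of 58 genes, of which 49 were tested. Of these 49, 20 passed the test, beside 35.2% of all tested genes (17.3% as rises and 17.9% as falls). Among the 13 other BCL2 family genes, 6 passed the filter on low counts, and 0 rose and 1 fell. This was BCL2L13, an outer membrane protein that acts in mitophagy, with 61.3 ± 3.79 CPM in shPROX1 and 74.3 ± 7.49 CPM in control (log2 change -0.26 ± 0.07). BNIP3L, a mitophagy receptor and the most abundant of those not called, had 105 ± 8.27 CPM in shPROX1 and 104 ± 7.91 CPM in control. The 7 below the filter were BBC3, which encodes the BH3-only protein PUMA (20 counts over the shPROX1 libraries and 28 over the control libraries), HRK (9 in shPROX1 and 16 in control), BIK (4 in shPROX1 and 10 in control), BCL2L15 (8 in shPROX1 and 2 in control), BCL2L14 (0 in shPROX1 and 1 in control), and BCL2A1 and BCL2L10 with 0 counts in all libraries. In a single library, 0 counts leave a level of up to 3 counts possible, or 0.801 CPM in the shallowest library. For a gene with 0 counts in all libraries, the bound over the libraries together is lower.

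Downstream of the members, 3 of 13 genes of the mitochondrial step and caspase activation rose and 2 fell, with a median log2 change of 0.05. Among all tested genes 17.3% rose and 17.9% fell. CYCS, which encodes cytochrome c, rose (478 ± 18.8 CPM in shPROX1 and 417 ± 10.9 CPM in control, log2 change 0.22 ± 0.04); 42 annotated pseudogenes of CYCS together held 25 counts in shPROX1 and 21 counts in control. The initiator CASP9 fell (11.7 ± 1.36 CPM in shPROX1 and 18.1 ± 0.335 CPM in control, log2 change -0.61 ± 0.13). VDAC1, a channel of the outer mitochondrial membrane, rose (log2 change 0.14 ± 0.05, edgeR adjusted p = 0.0244) but did not pass without shPROX1 replicate 1 or 2 (edgeR adjusted p of 0.0701 and 0.100). VDAC3, the most abundant gene not called, had 496.9 to 559 CPM over the shPROX1 libraries and 495 to 499 CPM over the control libraries.

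Of 20 genes whose proteins bind, modify or degrade members, 4 rose and 6 fell, with a median log2 change of 0.00. The background shares were 17.3% for rises and 17.9% for falls. The kinase gene AKT2, of a family that phosphorylates BAD, fell (60.6 ± 4.48 CPM in shPROX1 and 88.6 ± 5.47 CPM in control, log2 change -0.53 ± 0.07). MOAP1, a partner of BAX, fell too (20.2 ± 2.38 CPM in shPROX1 and 27.6 ± 2.34 CPM in control). DYNLL2, the dynein light chain that holds BMF, rose (112 ± 7.82 CPM in shPROX1 and 84.4 ± 5.01 CPM in control, log2 change 0.43 ± 0.06). PIM1, another BAD kinase, rose (16.3 ± 1.58 CPM in shPROX1 and 12.5 ± 1.24 CPM in control, edgeR adjusted p = 0.0205) but did not pass without shPROX1 replicate 2, control replicate 1 or control replicate 4 (adjusted p of 0.0717, 0.0548 and 0.05002). The 14-3-3 gene YWHAE, the most abundant not called, had 487.6 ± 6.74 CPM in shPROX1 and 488.5 ± 21.3 CPM in control.

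Among 12 transcription factors known to act on members, 10 were tested, of which 1 rose and 3 fell, with a median log2 change of -0.22. Over all tested genes the shares were 17.3% risen and 17.9% fallen. JUN, an AP-1 subunit, rose 2.16-fold (86.1, 77.3, 80.3 and 88.8 CPM in the shPROX1 libraries, against 36.0, 42.7, 38.7 and 39.5 CPM in the control libraries). MYC (-0.38 ± 0.05) and STAT3 (-0.24 ± 0.06) were among those that fell. ATF4, the most abundant not called, had 206 ± 5.83 CPM in shPROX1 and 223 ± 10.4 CPM in control. TP73 and MITF were below the filter. Whether any of these factors acts on PMAIP1, BCL2L1 or MCL1 in these cells was not tested.

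**Figure D4:**
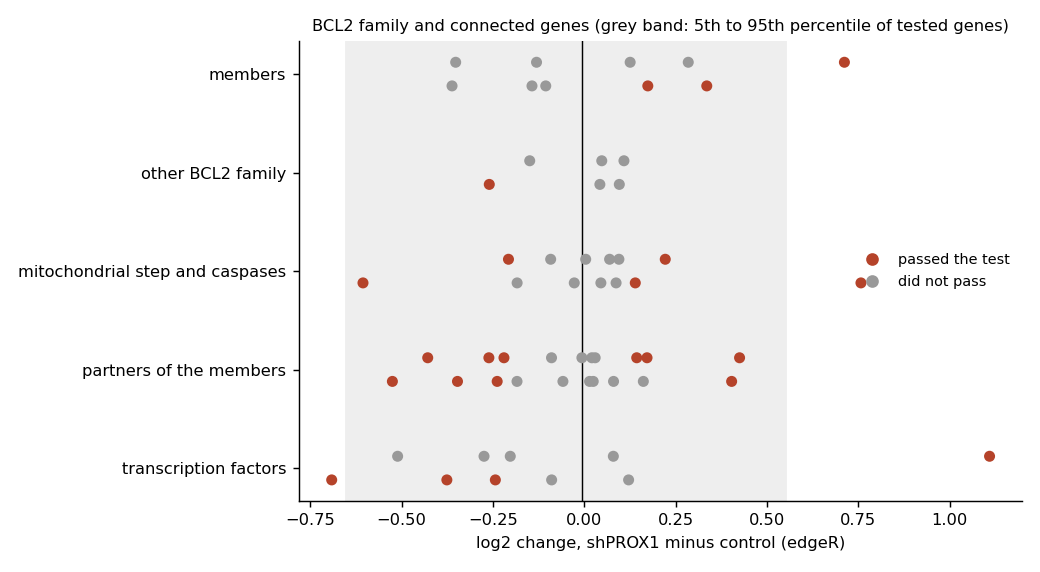
Log2 change (x axis, shPROX1 minus control) of every tested gene of the 10 members and the 4 pathway lists, one point per gene, red where it passed the test; the band spans the 5th to 95th percentile of all tested genes (-0.65 to 0.55) and the line their median. PMAIP1 (0.71) and JUN (1.11) lie above the band.

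The calls on PMAIP1, BCL2L1 and MCL1 held under all 16 alternatives, which included each library left out in turn. The range of log2 changes without single libraries was 0.67 to 0.76 for PMAIP1, 0.29 to 0.39 for BCL2L1 and 0.15 to 0.19 for MCL1. The largest adjusted p over the alternatives was 2.37e-07 for PMAIP1, 0.00878 for BCL2L1 and 0.0270 for MCL1, the last without shPROX1 replicate 2.

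**Figure D5:**
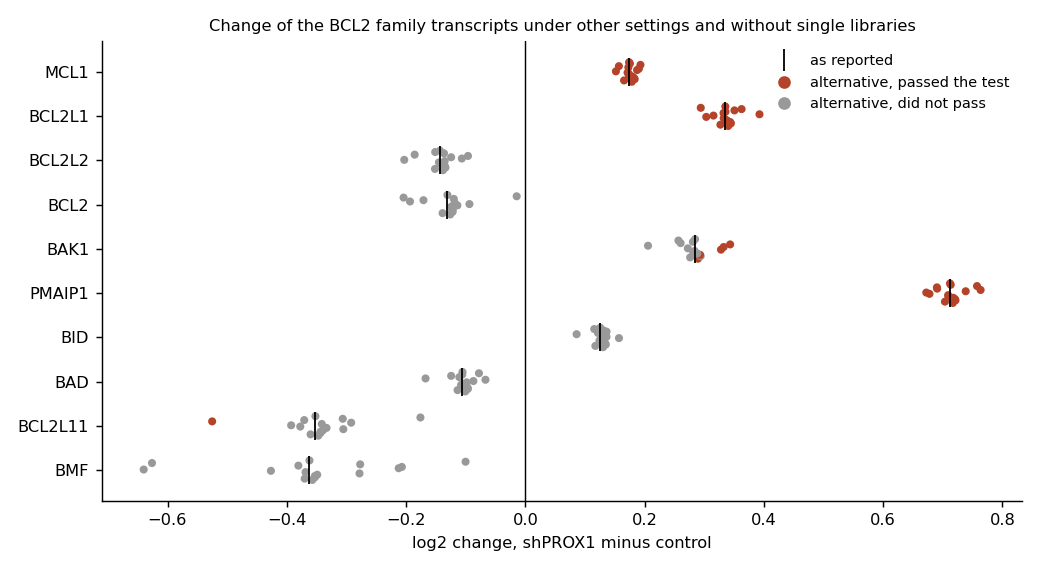
Log2 change (x axis, shPROX1 minus control) of each member as reported (black tick) and under each of 16 alternatives (points, red where the test was passed). Points of PMAIP1, BCL2L1 and MCL1 are all red, those of BAK1 are red in 5 cases, and BCL2L11 is red once, without control replicate 1.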

How the data were processed

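RNA of 8 RD libraries was measured, 4 shPROX1 and 4 control, grouped by their titles. Each deposited table gives unnormalized counts for every gene of 1 library. FastQC, HISAT2, HTSeq, DESeq2 and GRCh38 (hg38) are named in the submitters' processing notes. Versions, annotation release and strand setting are not given in the sources used here. If strand was not used in counting, reads where genes overlap on opposite strands may have been left uncounted as ambiguous or counted for the other gene. The kit keeps strand, per the labels' protocols. Of 58302 genes, 58039 matched GENCODE 29 (0 entries named no gene). Library totals were 3747090 to 4865161 counts; floors from a count of 0 cover counting error only, while the 95% intervals come from the edgeR fit and include the spread between libraries.

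The count test was that of edgeR 4.0.16 (R 4.3.3; TMM, filterByExpr by group, quasi-likelihood F test, Benjamini-Hochberg over 12392 genes, threshold 0.05; biological coefficient of variation 6.41%). Alternatives were RLE and upper-quartile factors, other filters, DESeq2 1.42.0, limma 3.58.1 voom, the replicate number as a block, single libraries left out and a threshold of 0.01. On simulated data with 12392 genes for this comparison, 65% of the genes given a log2 change of 0.5 and 95% of those given 1 were found (80 each), with calls on 0.0492% of 12192 genes left as they were. The simulation changed few genes and gave every gene the same coefficient of variation, whereas 4364 genes were called in the data. Its rates therefore need not hold for these data. The 12 pairs of libraries within groups differed by more than sampling noise, so none was dropped as a copy. Nothing in the labels says which cultures the replicates came from, and p-values set the group difference against the spread between these samples. Whether the changes hold in other cultures or with another hairpin was not tested. Members and lists were chosen with earlier results of these data known. Named genes were all members and PROX1, for each list up to 4 called genes with the largest change and the most abundant gene not called (all called genes where at most 5), and the 3 genes nearest in pattern to each risen member (pseudocount 0.5). Some genes that this rule names are not reported here.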

Additional observations from a re-analysis of the deposited data

How the results depend on the processing

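The 3 rises among the members (PMAIP1, BCL2L1, MCL1) kept their direction and side of the threshold under all 16 alternatives. The count of risen members was 3 to 4 without single libraries, and the count of fallen members 0 to 1, the 1 being BCL2L11 without control replicate 1. BAK1 also passed with RLE factors (log2 change 0.29, adjusted p = 0.0495) and with at least 1 CPM in 4 libraries (0.29, adjusted p = 0.0490). DESeq2 did not call PIM1 (adjusted p = 0.102), and PIM1 and VDAC1 missed a threshold of 0.01. Among values that did not pass, the sign turned for YWHAE, MYOD1 and CHRNA1 without control replicate 1 and for BOK without control replicate 4; over single libraries left out, log2 changes were -0.0041 to 0.045 for YWHAE, -0.032 to 0.081 for MYOD1, -0.013 to 0.036 for CHRNA1 and -0.024 to 0.11 for BOK. With the replicate number as a block, 3 members rose and 0 fell, 4187 genes were called in place of 4364, and PROX1 had a log2 change of -1.07; correlations of same-numbered libraries (-0.0719 to 0.0583 over 11056 genes) gave no sign of pairing, and 0 of 4 shPROX1 libraries were closest to their own number. DESeq2 called 3247 genes. Depth limits BMF, with 34 counts in shPROX1 and 47 in control, and the family genes below the filter.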
